A study of Caenorhabditis elegans with 71 samples.

Results

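The seam cells and the surrounding epidermis of the nematode Caenorhabditis elegans are specified by a small set of transcription factors. Described here are 10 genes grouped as seam cell and epidermal fate factors: elt-1, elt-3, egl-18, elt-6, ceh-16, rnt-1, bro-1, nhr-73, nhr-74 and lin-26. A role of each gene in these fates was not tested. They were chosen by name, as the rows of the deposited expression table that carry these gene names. All 10 were found with 1 row each, among 19120 named genes. The table identifies them as W09C2.1 (elt-1), K02B9.4 (elt-3), F55A8.1 (egl-18), F52C12.5 (elt-6), C13G5.1 (ceh-16), B0414.2 (rnt-1), F56A3.5 (bro-1), C27C7.4 (nhr-73), C27C7.3 (nhr-74) and F18A1.2 (lin-26).

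Seam cells are lateral epidermal stem-like cells that divide near the start of each larval stage, mostly giving a daughter that joins the epidermal syncytium and a daughter that stays a seam cell. The GATA factor ELT-1 commits embryonic cells to epidermis, and ELT-3, another GATA factor, works in the epidermis outside the seam. The GATA factors EGL-18 (also called ELT-5) and ELT-6, encoded by neighbouring genes, and the Engrailed homolog CEH-16 maintain seam identity and keep seam cells from fusing. RNT-1, a Runx factor, and its partner BRO-1, the CBF-beta homolog, promote seam cell proliferation. LIN-26 is a zinc finger protein needed for epidermal fate, and nhr-73 and nhr-74 encode nuclear hormone receptors.

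Poly(A) RNA of whole larvae was sequenced in 71 libraries from 4 populations. All animals had hatched without food, were held in the first larval stage by starvation, and were then placed on plates with Escherichia coli OP50, from which time is counted. The lin-4(e912) mutant, which lacks the microRNA lin-4 and in which many lineages repeat first-stage programmes, was sampled at 20C every 2 h from 0 to 48 h (25 libraries). Wild type, strain N2, was sampled at 25C every 1.5 h from 0 to 28.5 h (20 libraries), at 20C every 2 h from 0 to 38 h (20 libraries, the first 20C population) and at 20C from 38 to 48 h in an independent population (6 libraries, the second). Each time point was 1 library of pooled animals, without replicates. Except for fed against arrested larvae, standard errors (SE) and p-values measure the spread between time points. For fed against arrested larvae, paired by population, they measure how that difference varied between populations, which also differ in genotype or temperature. Each genotype and temperature came from its own population, so these effects and differences between populations cannot be told apart.

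Values are RPKM as deposited, that is, reads scaled by gene length and library size. Depth, estimated from the steps between low values, lay between 12.3 and 36.5 M reads. Differences are on the log2(RPKM + 1) scale, where the changes of weakly expressed genes appear too small. A gene was called, and is said to have risen, fallen or oscillated, at a Benjamini-Hochberg adjusted p under 0.05 over all genes tested with limma and a size of at least 1 log2. The genotype label was checked through targets of lin-4, since lin-4 itself was not analysed here: lin-28 was higher in lin-4 by 1.44 ± 0.18 log2 and lin-14 by 0.97 ± 0.11 (SE, 17 pairs of libraries).

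The values of nhr-73 and nhr-74 cannot be assigned to these genes with certainty. Over 59 libraries with at least 1 RPKM of nhr-73, the level of another receptor gene, nhr-245 (ZK1025.10), was 0.911 to 1.07 times that of nhr-73. The ratio of nhr-244 (ZK1025.6) to nhr-74 lay between 0.54 and 1.02 in 63 libraries. The sources used here do not say how the authors counted reads matching several genes, so the values of each pair cannot be told apart. On the WBcel235 annotation, which may not be the one the authors used, ceh-16 overlaps polk-1 and lin-26 overlaps lir-1, and counting by strand is not stated, so reads of overlapping genes may also be shared.

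Over the 20 libraries of the first 20C wild-type population, the median RPKM was highest for elt-3 (34.9), nhr-74 (32.6) and lin-26 (28.9). It was intermediate for egl-18 (15.7), nhr-73 (12.6), elt-1 (12.1) and elt-6 (9.56), and lowest for ceh-16 (5.19), bro-1 (4.44) and rnt-1 (3.04). The ranges over time of neighbours in this order overlapped, so the order holds for the medians and not at each hour.

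**Figure D1:**
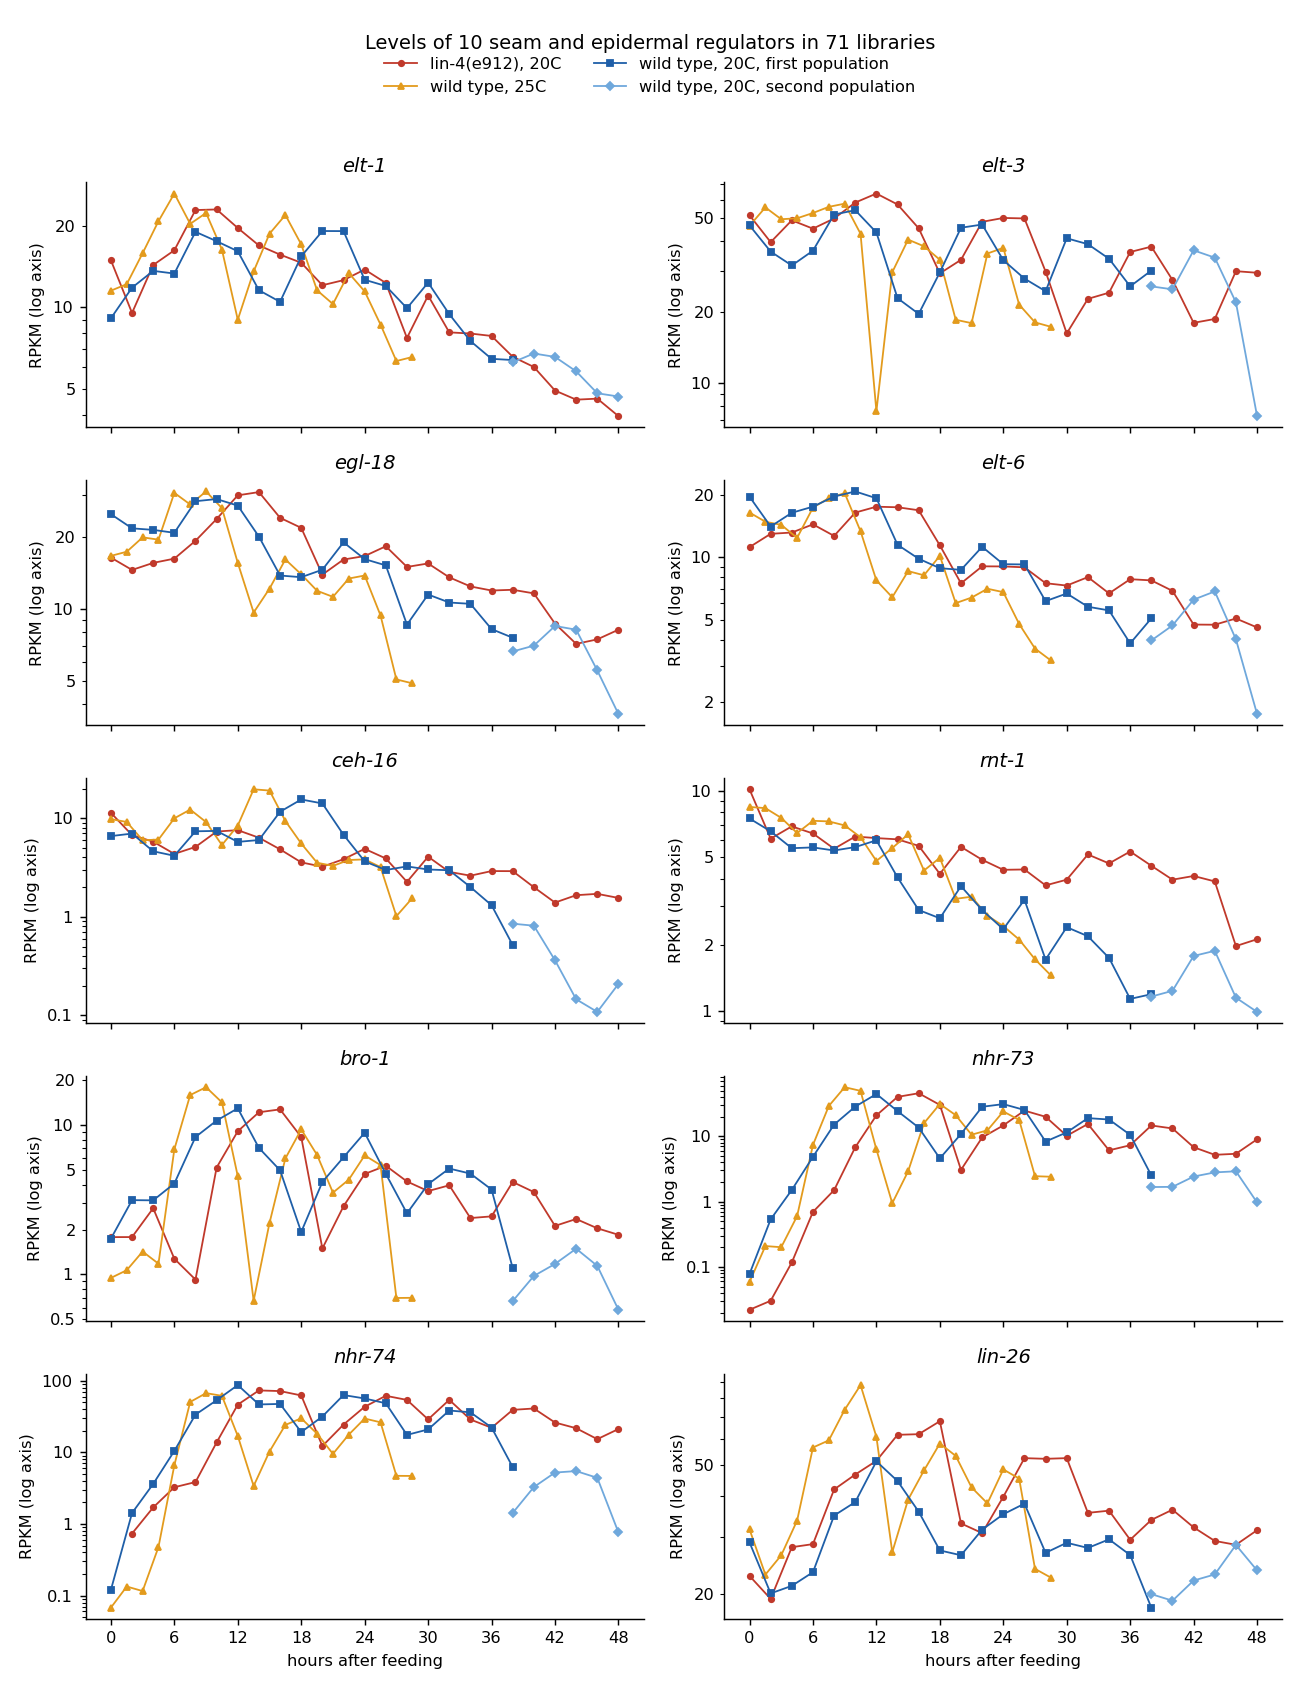
RPKM of each gene (log axis, scaled per panel) against hours after feeding, for lin-4(e912) at 20C, wild type at 25C and both wild-type populations at 20C. Each point is 1 library. The nhr-74 value of lin-4 at 0 h, an empty cell, is not drawn. nhr-73, nhr-74 and bro-1 show repeated peaks, while rnt-1 declines with little cycling.

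The GATA factor genes were expressed in every library. elt-1 had a lowest, median and highest level of 3.96, 12.0 and 22.9 RPKM in lin-4, of 6.32, 13.4 and 26.2 RPKM in wild type at 25C and of 6.38, 12.1 and 19.1 RPKM in the first 20C population. Its maximum came at 10 h in lin-4, at 6 h at 25C and at 20 h at 20C, and the minimum at the end of the series or 1 library before it. elt-3 ran from 16.3 to 63.7 RPKM in lin-4 (median 38.0), from 7.62 to 57.7 RPKM at 25C (median 37.8) and from 19.7 to 54.2 RPKM at 20C (median 34.9). It dipped and recovered repeatedly, and the 25C minimum was a single library at 12 h, between 43.0 RPKM at 10.5 h and 29.6 RPKM at 13.5 h.

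egl-18 and elt-6, which lie next to each other in the genome, kept nearly the same course. egl-18 ran from 7.13 to 30.8 RPKM in lin-4, from 4.88 to 31.02 RPKM at 25C and from 7.57 to 28.8 RPKM in the first 20C population. elt-6 ran from 4.59 to 17.6 RPKM in lin-4, from 3.18 to 20.4 RPKM at 25C and from 3.85 to 20.8 RPKM at 20C. egl-18 was the higher of this pair in all 71 libraries, with a median ratio to elt-6 of 1.69 in lin-4, 1.55 at 25C and 1.54 and 1.43 in the first and the second 20C population. Both peaked at 9 h at 25C and at 10 h at 20C, while in lin-4 the maxima were at 14 h for egl-18 and 12 h for elt-6.

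ceh-16 had a course of its own. In the first 20C wild-type population it stood at 4.16 to 7.44 RPKM from 6 to 14 h, reached 11.6, 15.5 and 14.1 RPKM at 16, 18 and 20 h, and was back at 3.65 RPKM by 24 h. At 25C a smaller maximum of 12.2 RPKM at 7.5 h was followed by 19.6 and 19.1 RPKM at 13.5 and 15 h. In lin-4 the level was 4.84, 3.57 and 3.22 RPKM at 16, 18 and 20 h, and no later library exceeded 4.89 RPKM. By 38 h ceh-16 was at 2.91 RPKM in lin-4, against 0.852 RPKM in the second and 0.517 RPKM in the first 20C wild-type population.

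rnt-1 and bro-1, which encode partners of 1 complex, did not follow each other. rnt-1 was highest in the arrested larvae at 0 h, at 10.2 RPKM in lin-4, 8.47 RPKM at 25C and 7.51 RPKM at 20C. Its last values were 2.12 RPKM in lin-4 (48 h), 1.45 RPKM at 25C (28.5 h) and 1.19 RPKM at 20C (38 h). bro-1 was low in arrested larvae, at 1.78, 0.948 and 1.74 RPKM in these populations. It then peaked at 12.7 RPKM in lin-4 (16 h), 17.9 RPKM at 25C (9 h) and 12.9 RPKM at 20C (12 h). Later bro-1 maxima were lower each time, at 5.34 and 4.16 RPKM in lin-4, 9.36 and 6.27 RPKM at 25C and 8.89 and 5.12 RPKM at 20C. The ratio of bro-1 to rnt-1, which is per length, therefore ran from 0.169 to 2.26 in lin-4, from 0.112 to 2.58 at 25C and from 0.231 to 3.78 at 20C. Over all 71 libraries bro-1 correlated with rnt-1 at r = 0.29 and with nhr-73 at r = 0.86, libraries of a population sharing their time course.

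The receptor signals had the widest swings. nhr-73 was at 0.0221, 0.0588 and 0.0779 RPKM at 0 h in lin-4, wild type at 25C and wild type at 20C, and its maximum was 45.7 RPKM in lin-4 (16 h), 56.6 RPKM at 25C (9 h) and 44.5 RPKM at 20C (12 h). Between peaks it was as low as 3.06 RPKM in lin-4 (20 h), 0.946 RPKM at 25C (13.5 h) and 4.59 RPKM at 20C (18 h). nhr-74 had no value at 0 h in lin-4, taken as 0, and 0.0678 and 0.12 RPKM at 0 h in wild type at 25C and 20C. Its maxima were 73.2 RPKM in lin-4 (14 h), 67.1 RPKM at 25C (9 h) and 86.9 RPKM at 20C (12 h).

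lin-26 swung less, between 19.4 and 68.0 RPKM in lin-4, 22.5 and 87.9 RPKM at 25C and 18.2 and 51.2 RPKM in the first 20C population. The lin-4 peaks came at 18 and 30 h, those at 25C at 10.5 and 18 h and those at 20C at 12 and 26 h, counting maxima that stand out by at least 0.5 log2.

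Most of these genes fell along the wild-type series, and fewer did in lin-4. The fitted linear change from 6 to 38 h at 20C, or from 4.5 to 28.5 h at 25C, was estimated beside cosine and sine terms in 17 libraries per population. In lin-4, 3 of the 10 genes fell, where 15.4% of all genes tested did, and 1 rose, where 9.20% did. At 25C 6 fell (16.7% of all genes) and 0 rose (11.1%). In wild type at 20C 7 fell (16.4%) and 0 rose (9.45%). All 10 wild-type changes were negative at both temperatures. Whether fewer genes fell in lin-4 than in wild type was tested only gene by gene, as the change with time of the genotype difference given further on. The median change of the 10 was -0.68 log2 in lin-4, -1.46 at 25C and -1.32 at 20C, beside medians over all genes of -0.24, -0.14 and -0.09.

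Of the GATA factors, elt-1 fell in all 3 populations, with changes of -1.53 ± 0.15 log2 in lin-4, -1.44 ± 0.20 at 25C and -1.01 ± 0.21 at 20C (SE, limma adjusted p = 6.8e-07, 2.4e-05 and 0.00065). elt-6 also fell in each, with -1.22 ± 0.18 in lin-4, -1.93 ± 0.19 at 25C and -1.997 ± 0.17 at 20C. egl-18 fell, with -1.95 ± 0.24 at 25C and -1.68 ± 0.14 at 20C, and its change of -0.95 ± 0.15 in lin-4 passed the adjusted p with a size under 1 log2. elt-3 fell, with -1.005 ± 0.19 in lin-4 and -1.19 ± 0.38 at 25C, while its change of -0.23 ± 0.18 at 20C did not pass.

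Of the seam factors, ceh-16 fell, with -2.02 ± 0.43 log2 at 25C and -1.88 ± 0.51 at 20C, and had -0.97 ± 0.18 in lin-4, under the size limit. rnt-1 fell, with -1.76 ± 0.14 at 25C and -1.59 ± 0.16 at 20C, and had -0.41 ± 0.13 in lin-4. bro-1 fell at 20C, with -1.42 ± 0.27, while -0.17 ± 0.43 in lin-4 and -1.47 ± 0.61 at 25C were not called. nhr-74 rose by 1.76 ± 0.58 in lin-4 and fell at 20C, with -1.22 ± 0.48, its change of -0.23 ± 0.78 at 25C not passing. nhr-73 and lin-26 were called in no population when all libraries were used, with 1.04 ± 0.65 and -0.33 ± 0.18 in lin-4, -0.44 ± 0.90 and -0.94 ± 0.29 at 25C and -1.12 ± 0.47 and -0.71 ± 0.19 at 20C.

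**Figure D2:**
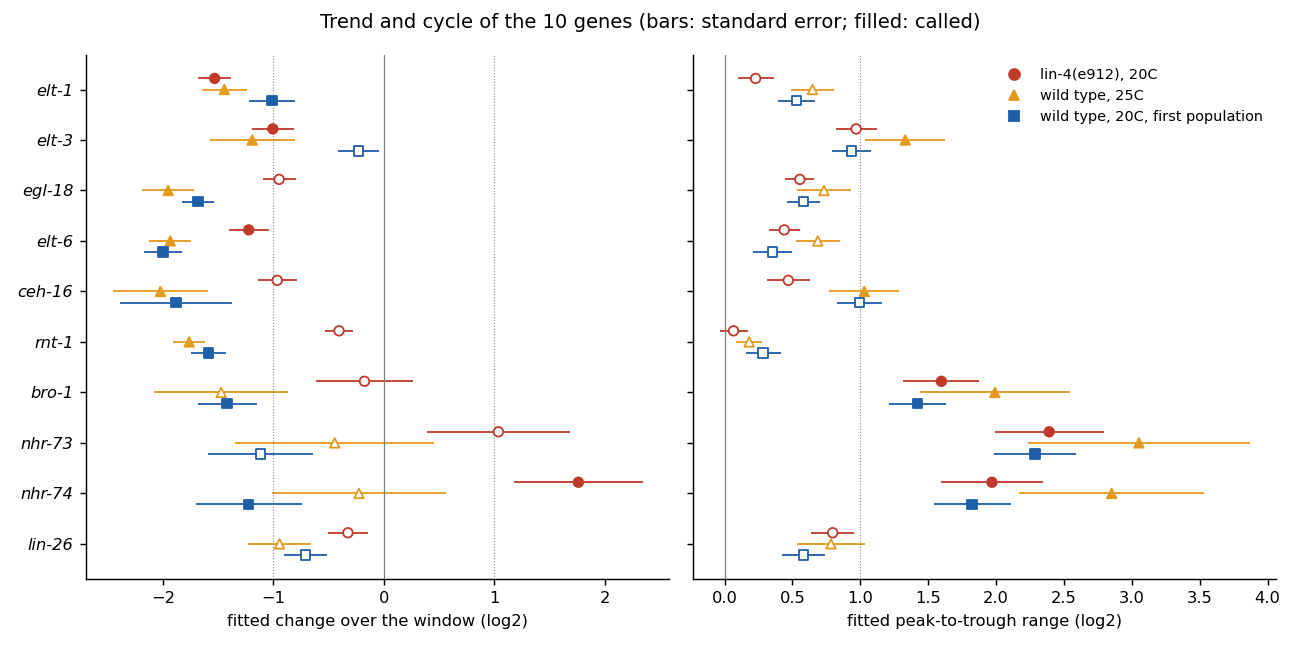
Fitted change over the window (left) and fitted peak-to-trough range (right), both in log2(RPKM + 1), for lin-4(e912) at 20C, wild type at 25C and the first wild-type population at 20C, 17 libraries each. Bars are standard errors, filled symbols are called genes and dotted lines mark 1 log2. The trends of all genes but nhr-73 and nhr-74 are negative in each population, though not all are called. The ranges of bro-1, nhr-73 and nhr-74 exceed 1 log2 in each.

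These trends depend on what all other genes did. When each library was rescaled by its median ratio, the median of all genes moved by 0.33 log2 in lin-4, 0.22 at 25C and 0.19 at 20C, and the members that fell numbered 1, 5 and 5: elt-3 and elt-6 lost their call in lin-4, elt-3 at 25C, and elt-1 and nhr-74 at 20C. Calls near a threshold also rested on single libraries. Without the 6 h or the 8 h library the rise of nhr-74 in lin-4 was not called (adjusted p = 0.091 and 0.059). Its fall at 20C was not called without any one of the 8, 12, 14, 16, 34, 36 or 38 h libraries, the last leaving -0.76. elt-1 at 20C had -0.998 to -0.90 without the 12, 32, 34, 36 or 38 h library. elt-3 had -0.97 to -0.89 in lin-4 without the 14, 16, 28 or 30 h library and -0.86 at 25C without the 4.5 h library. Single omissions also added calls. Without the 6 h library egl-18 (-1.10) and ceh-16 (-1.06) were called in lin-4, and ceh-16 also without the 8 h or the 30 h library. At 25C bro-1 was called without the 4.5, 13.5, 15, 19.5 or 21 h library (-2.14 to -1.47) and lin-26 without the 4.5 h or the 21 h library (-1.28 and -1.03). At 20C nhr-73 was called without the 6, 26, 28 or 30 h library (-1.48 to -1.14). RNA came from whole animals, in which fewer cells of a type and less RNA per cell cannot be told apart. Of the germline marker genes, 10 of 11 rose in lin-4, 11 of 11 at 25C and 10 of 11 at 20C, with summed levels at the first and last hour of the window of 33.5 and 257 RPKM in lin-4, 36.6 and 364 RPKM at 25C and 49.7 and 320 RPKM at 20C. Of 9 neuron markers 8, 8 and 5 fell in these populations, the sum being 1080 and 374 RPKM, 915 and 318 RPKM, and 908 and 305 RPKM at those hours. No germline or neuron marker was at 0 in every library of the series, and their part in the members' trends was not tested.

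Cycling was measured with a cosine and a sine term beside a smooth curve of time, at the period that described all genes best: 14 h in lin-4, 7.75 h at 25C and 11.25 h at 20C. In lin-4 3 of the 10 genes oscillated (13.5% of all genes tested), at 25C 5 (10.9%) and in wild type at 20C 3 (13.7%). bro-1, nhr-73 and nhr-74 were called in each population. Their peak-to-trough ranges were 1.60 ± 0.28, 2.39 ± 0.40 and 1.97 ± 0.38 log2 in lin-4 (limma adjusted p = 0.0019, 0.0015 and 0.0034), 1.99 ± 0.55, 3.05 ± 0.82 and 2.85 ± 0.68 at 25C (0.049, 0.042 and 0.028) and 1.42 ± 0.21, 2.29 ± 0.30 and 1.82 ± 0.28 at 20C (0.0011, 0.00069 and 0.0015). The median range of the 10 was 0.68 log2 in lin-4, 0.91 at 25C and 0.76 at 20C, beside 0.32, 0.31 and 0.30 over all genes. The maxima that stood out by at least 0.5 log2 did not all recur at the fitted period, in lin-4 or in wild type. From 6 h on in lin-4, those of nhr-73 came at 16, 26, 32 and 38 h. nhr-74 had them there at 14, 26, 32 and 40 h, and bro-1 at 16, 26 and 38 h. In the first 20C wild-type population nhr-73 and bro-1 had them at 12, 24 and 32 h, and nhr-74 at 12, 22 and 32 h. At 25C nhr-73, nhr-74 and bro-1 had them at 9, 18 and 24 h.

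The other 7 members cycled less. elt-3 ranged by 0.97 ± 0.15 log2 in lin-4, 1.33 ± 0.30 at 25C, where it was called, and 0.93 ± 0.14 at 20C. ceh-16 ranged by 0.47 ± 0.16 in lin-4, which did not pass (adjusted p = 0.067), by 1.03 ± 0.26 at 25C, called, and by 0.99 ± 0.17 at 20C. Smaller ranges of 0.23 to 0.80 were fitted for elt-1, egl-18, elt-6 and lin-26, and all passed the adjusted p but those of elt-1 in lin-4 (0.34), lin-26 at 25C (0.079) and elt-6 at 20C (0.16). rnt-1 had ranges of 0.07 ± 0.10 in lin-4, 0.18 ± 0.09 at 25C and 0.28 ± 0.13 at 20C and passed in none. Differences in range between populations were not tested.

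The count at 25C depended on the period and on single libraries. It was 0 at a period 1 h shorter and 1 at a period 1 h longer. It was 1 without the 12 or 13.5 h library, 2 without the 9, 10.5, 24 or 25.5 h library and 3 without the 7.5, 15, 18, 19.5, 22.5 or 28.5 h library. At 20C ceh-16 was called as well without the 16, 22, 26, 30, 34, 36 or 38 h library, and elt-3 without the 26, 32 or 38 h library. In lin-4 elt-3 was called as well without the 6, 10, 16, 32 or 38 h library. With the first hours included, 0 of the 10 were called at 25C or at 20C, and with periods limited to 12 h, 1 was called in lin-4, elt-3.

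The fitted peaks differed in place, given here as a percentage of the cycle relative to the peak of nhr-73, with negative values earlier. ceh-16 peaked at -27.4% at 25C and at -34.2% at 20C (SE of its own peak 3.91% and 2.45%). Its place rests on few maxima that stand out by at least 0.5 log2. From 6 h on, the first 20C population had such a ceh-16 maximum only at 18 h. The 25C series had them only at 7.5 and 13.5 h. A return of the ceh-16 peak in every cycle was therefore not shown. elt-1 peaked at -13.9% at 25C and -23.9% at 20C (SE 3.96% and 4.07%). elt-3 peaked at -24.3% in lin-4, -13.4% at 25C and -19.9% at 20C (SE 2.61%, 3.62% and 2.56%). These 3 genes came first in each population in which their range passed the adjusted p.

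The remaining members lay nearer to the receptor peak. elt-6 was at -1.53% in lin-4 and -8.40% at 25C (SE 4.02% and 3.92%), and egl-18 at -2.49%, -6.02% and -4.43% in lin-4, at 25C and at 20C (SE 2.97%, 4.53% and 3.55%). bro-1 was at 0.417%, -1.37% and -1.58% and nhr-74 at 0.792%, -2.84% and -1.42%, less than the SE of their peaks. lin-26 came later, at 3.73% in lin-4 and 5.31% at 20C (SE 2.98% and 4.11%). These places describe fitted curves, and no test was made between peaks. The places and their SE take the fitted period as given. As stated above, the maxima of the receptor signals and bro-1 did not all recur at that period, and the SE does not cover this.

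**Figure D3:**
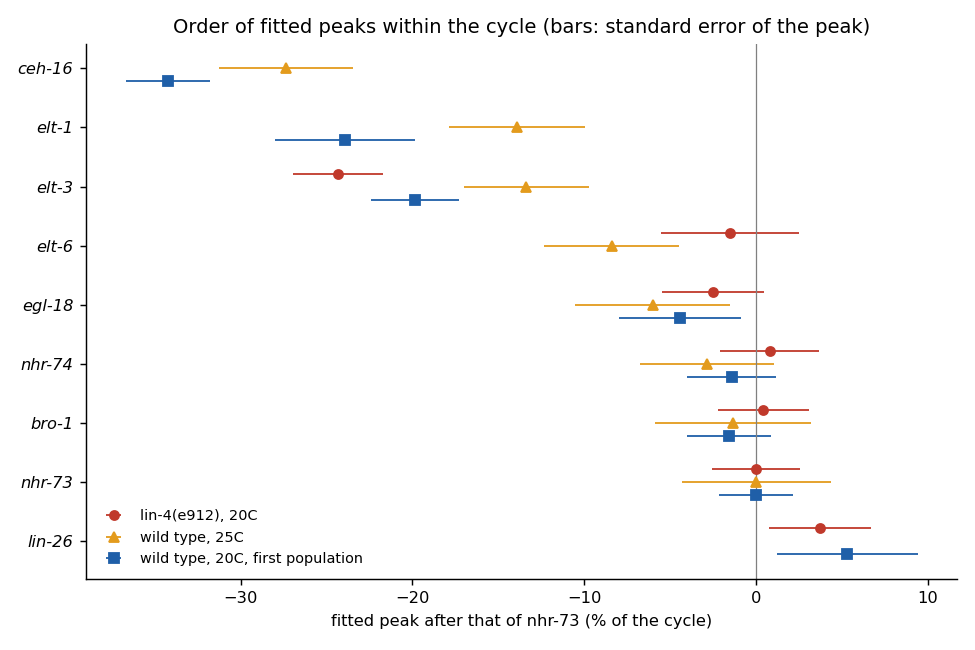
Fitted peak of each gene relative to that of nhr-73, as a percentage of the population's cycle, for genes whose range passed the adjusted p in lin-4(e912) at 20C, wild type at 25C and the first wild-type population at 20C. Bars are the standard error of the gene's own peak, with the fitted period taken as given, and negative values are earlier. ceh-16, elt-1 and elt-3 lie left of the other genes, which gather around 0.

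Other regulators of the epidermis and seam were counted beside the shares of all genes given above (13.5% in lin-4, 10.9% at 25C and 13.7% at 20C). Of 13 such genes tested, 6 oscillated in lin-4, 3 at 25C and 5 at 20C. They included peb-1, which encodes a DNA-binding protein, with ranges of 2.24 ± 0.43 log2 in lin-4, 3.37 ± 0.78 at 25C and 2.05 ± 0.40 at 20C. grh-1, the Grainyhead homolog that acts in epidermal barriers, ranged by 2.38 ± 0.27 in lin-4 and 1.93 ± 0.33 at 20C, and bed-3, a zinc finger gene acting in seam divisions and listed as zbed-6, by 3.16 ± 0.36 and 1.96 ± 0.54. All 7 epidermal marker genes tested, mainly of the cuticle, oscillated in lin-4 and at 20C (0 of 7 were called at 25C, although all 7 had an unadjusted p under 0.05 with limma), among them dpy-7 (3.66 ± 0.63) and wrt-2 (4.08 ± 0.81) at 20C. Of the seam division genes 1 of 11 oscillated in lin-4 and at 25C, cyd-1, which encodes cyclin D, with 1.07 ± 0.17 and 1.03 ± 0.25, and 0 of 11 did at 20C (4 of 11 had an unadjusted p under 0.05). Cycling was not confined to epidermal genes: of 7 pharynx markers, 4 oscillated in lin-4, 5 at 25C and 5 at 20C, among them the myosin gene myo-1 with 1.42 ± 0.28, 1.35 ± 0.29 and 1.22 ± 0.29.

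Leaving arrest was compared over 3 populations, as fed larvae at 6 h (20C) or 4.5 h (25C) against arrested larvae at 0 h. nhr-73 and nhr-74 met the criteria for a rise (8.86% of all genes tested did) and 0 of the 10 fell (10.1%). Both receptors passed the filter of a mean of 1 RPKM only through the fed larvae, with means of 2.05 and 4.73 RPKM in fed and 0.0529 and 0.0626 RPKM in arrested larvae, so their count is a description and supports nothing. With limma 5 members had an unadjusted p under 0.05. nhr-73 was at 0.696, 0.6 and 4.86 RPKM in fed larvae of lin-4, wild type at 25C and wild type at 20C, against 0.0221, 0.0588 and 0.0779 RPKM in the arrested ones, a difference of 1.26 ± 0.38 log2 (limma adjusted p = 0.048). nhr-74 was at 3.25, 0.476 and 10.5 RPKM in fed larvae, against 0, 0.0678 and 0.12 RPKM in arrested ones, a difference of 1.97 ± 0.52 (adjusted p = 0.032). For both, each fed larval library exceeded each arrested one. ceh-16 was at 4.35, 6.08 and 4.16 RPKM in fed and at 11.3, 9.79 and 6.59 RPKM in arrested larvae, a difference of -0.79 ± 0.19 that passed the adjusted p (0.024) but not the size limit. The receptor calls were lost without population as a block (adjusted p = 0.081 and 0.054), without the filter on low genes (0.080 and 0.059) and without the lin-4 population (0.080 and 0.11). Without the first 20C population, or with 4 h and 3 h as the fed times, both genes were too low to be tested.

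Few members differed in level between the wild-type populations at 25C and 20C. For this comparison 25C time was multiplied by 1.3, the factor at which 25C libraries correlated best with 20C libraries, and 16 libraries at 25C were set against 17 at 20C. At this factor the 25C period of 7.75 h does not become the 20C period of 11.25 h. Cycles of both populations were fitted at the 20C period, so shifts in phase between them were not modelled. nhr-74 was lower at 25C, with a difference of -1.04 ± 0.20 log2 (limma adjusted p = 9.7e-05), the only call (0.513% of all genes were lower, 1.18% higher). Over all 20 libraries of each population, its lowest, median and highest levels were 0.0678, 13.6 and 67.1 RPKM at 25C, against 0.12, 32.6 and 86.9 RPKM at 20C, and the populations overlap. Both lowest levels were at 0 h, which was outside this comparison. The near-copy nhr-244 had -0.88 ± 0.19. The call was lost without the 6, 13.5 or 27 h library at 25C, or without the 16 h library at 20C, where the difference lay between -0.98 and -0.93, and with no cycle terms (-0.97).

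Among the rest, lin-26 was higher at 25C by 0.50 ± 0.08 log2, rnt-1 by 0.36 ± 0.06 and ceh-16 by 0.24 ± 0.08, each past the adjusted p (1.7e-05, 4.0e-05 and 0.020) and under the size limit. The overlapping gene lir-1 was higher by 0.68 ± 0.08. The other 6 members had differences of -0.44 to 0.13 that did not pass. The change of the temperature difference over time was called for 0 of the 10 (3.57% of all genes were called, counting both directions), with 3 at an unadjusted p under 0.05 (egl-18, bro-1 and lin-26). Without the 12 h library at 25C, where elt-3 was at its lowest, elt-3 was called (-1.17).

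Loss of lin-4 was compared at equal hours, over 17 pairs of libraries from 6 to 38 h. lin-4 libraries correlated best with wild type when their time was multiplied by 0.85. As a mean over the window, 0 of the 10 genes were called with limma (0.373% of all genes were higher and 0.770% lower), and 3 members had an unadjusted p under 0.05. rnt-1 was higher in lin-4 in 17 of 17 pairs. Its lowest, median and highest levels were 3.72, 5.15 and 6.41 RPKM in lin-4, against 1.13, 2.87 and 5.97 RPKM in wild type, a difference of 0.62 ± 0.10 log2 (adjusted p = 0.00019). lin-26 was higher in 16 of 17 pairs, at 28.5, 42.0 and 68.0 RPKM in lin-4, against 18.2, 29.5 and 51.2 RPKM in wild type, a difference of 0.45 ± 0.09 (adjusted p = 0.00065). The overlapping gene lir-1, with which reads may be shared, was higher by 0.37 ± 0.08 (adjusted p = 0.0012). For rnt-1 and lin-26 the groups overlap, and both differences are under 1 log2.

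The difference in rnt-1 grew with time from 6 to 38 h. It did not keep growing: against the second wild-type population it was 1.37 log2 at 38 h and 0.65 at 48 h, a change that was not tested. Both genotypes stood close together from 6 to 12 h, with 6.11 RPKM in lin-4 and 5.97 RPKM in wild type at 12 h. At 24 h rnt-1 was at 4.38 RPKM in lin-4, against 2.35 RPKM in wild type, and at 36 h at 5.31 RPKM, against 1.13 RPKM. The fitted change of the difference over the window was 1.19 ± 0.18 log2 (limma adjusted p = 0.0011), the only call among the 10 (2.03% of all genes were called higher, 1.52% lower). It lay between 1.05 and 1.64 in 22 alternatives that gave a value and remained called in each, with lin-4 time aligned to wild type at 1.09 ± 0.23. nhr-74 had a larger but less certain change, 2.66 ± 0.84 (adjusted p = 0.056), called without the 14, 18 or 36 h pair (2.91, 2.83 and 3.01).

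The cycling members differed in sign from hour to hour. At 8 h nhr-73 was at 1.5 RPKM in lin-4, against 15.1 RPKM in wild type, and bro-1 at 0.924 RPKM, against 8.32 RPKM. At 18 h the order was turned round, with nhr-73 at 30.3 RPKM in lin-4, against 4.59 RPKM in wild type, and bro-1 at 8.32 RPKM, against 1.93 RPKM. Their mean differences of -0.33 ± 0.35 and -0.21 ± 0.24 log2 did not pass.

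**Figure D4:**
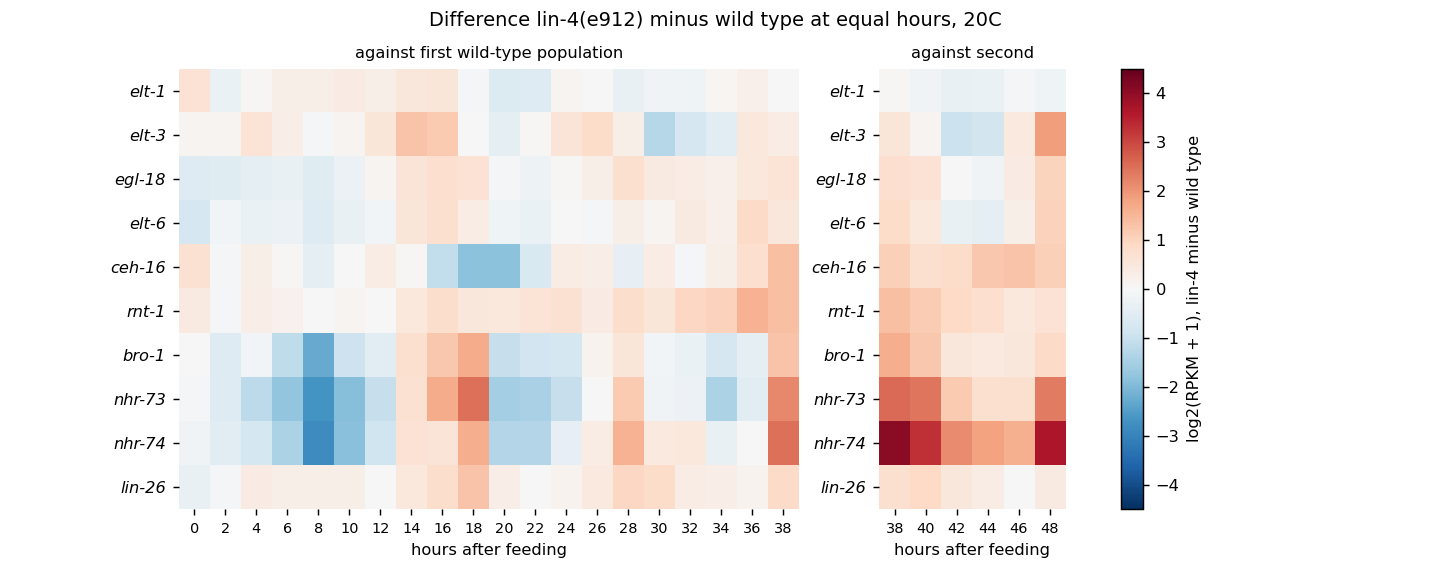
Difference in log2(RPKM + 1), lin-4(e912) minus wild type, for each gene at each shared hour, against the first wild-type population (left, 0 to 38 h) and the second (right, 38 to 48 h). Red is higher in lin-4. bro-1, nhr-73 and nhr-74 alternate in sign, ceh-16 is blue from 16 to 20 h, and rnt-1 is red from 14 h on.

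ceh-16 stood apart at the hours of its wild-type maximum. At 18 h it was at 3.57 RPKM in lin-4, against 15.5 RPKM in wild type, 0.23 times the wild-type level. The difference was -1.11, -1.85 and -1.84 log2 at 16, 18 and 20 h. ceh-16 alone of the 10 was lower by at least 1 log2 in each of these 3 pairs, as were 0.453% of all genes. The hours were chosen after the values were seen, and no test was made. From 22 to 48 h ceh-16 in lin-4 was at 1.4 to 4.89 RPKM, so no later hour of the mutant reached the wild-type levels of 11.6 to 15.5 RPKM either.

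**Figure D5:**
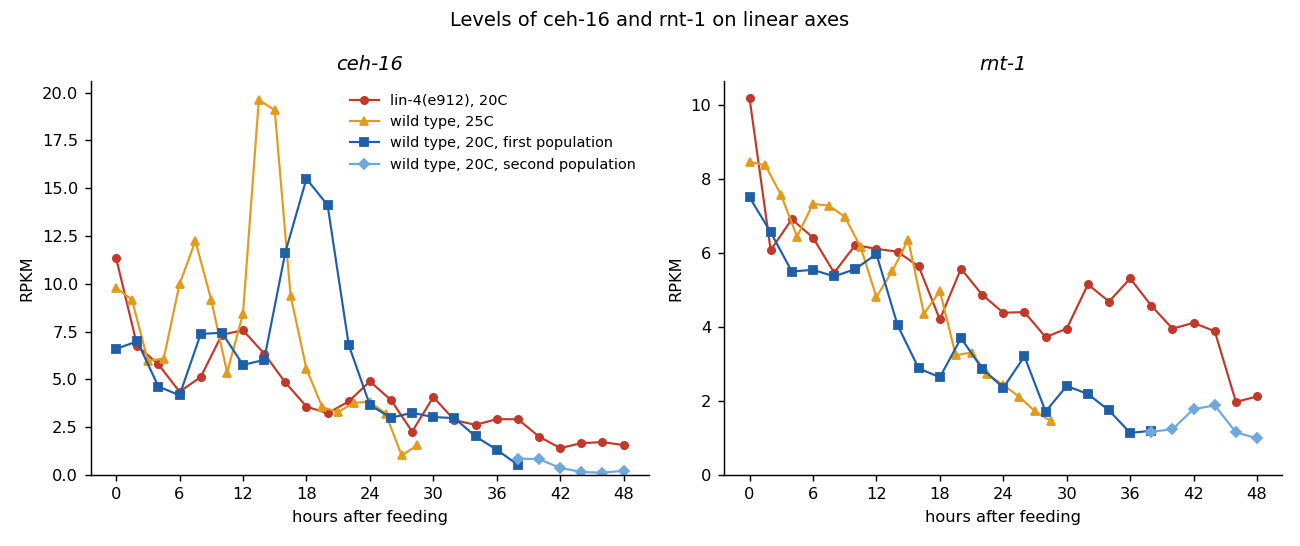
RPKM of ceh-16 (left) and rnt-1 (right) on linear axes against hours after feeding, 1 library per point, for lin-4(e912) at 20C, wild type at 25C and both wild-type populations at 20C. The ceh-16 maxima of 15.5 RPKM at 20C and 19.6 RPKM at 25C have no counterpart in lin-4 after 16 h, and rnt-1 is higher in lin-4 than in wild type at 20C at each shared hour from 14 h on, while the 25C series crosses it.

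At the hours of the last larval stage, 38 to 48 h, 6 pairs of libraries set lin-4 against the second wild-type population. ceh-16, nhr-73 and nhr-74 were higher in lin-4 (1.19% of all genes tested were) and 0 members were lower (2.65%). elt-1 had the only negative difference, -0.16 ± 0.07, and 8 members had an unadjusted p under 0.05. ceh-16 was at 1.4 to 2.91 RPKM in lin-4, against 0.109 to 0.852 RPKM in wild type, with no overlap, a difference of 1.03 ± 0.09 log2 (limma adjusted p = 0.0029). It passed the filter of a mean of 1 RPKM only through lin-4 (mean 1.87 RPKM in lin-4 and 0.415 RPKM in wild type) and was called with no filter as well (adjusted p = 0.0030), but without the 38 h pair its mean was under the filter and it was not tested. nhr-73 was at 5.21 to 14.7 RPKM in lin-4, against 0.971 to 2.92 RPKM (1.65 ± 0.32, adjusted p = 0.018), and nhr-74 at 15.3 to 40.9 RPKM, against 0.761 to 5.47 RPKM (2.75 ± 0.38, adjusted p = 0.0078). The near-copies nhr-245 and nhr-244 had 1.64 ± 0.32 and 2.58 ± 0.31.

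Further members were higher in lin-4 by less than the size limit. rnt-1 was at 1.97 to 4.57 RPKM in lin-4, against 0.989 to 1.88 RPKM in wild type (0.88 ± 0.13 log2, adjusted p = 0.0087), and bro-1 at 1.84 to 4.16 RPKM, against 0.58 to 1.49 RPKM (0.86 ± 0.18, adjusted p = 0.021). The genotypes do not overlap for either gene. lin-26 differed by 0.48 ± 0.12 (adjusted p = 0.033), at 28.4 to 36.4 RPKM in lin-4, against 19.1 to 28.4 RPKM in wild type, and lir-1 by 0.33 ± 0.04. rnt-1, bro-1 and lin-26 were higher in 6 of 6 pairs. The GATA genes elt-1, elt-3, egl-18 and elt-6 had differences of -0.16 to 0.44 that did not pass.

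These wild-type values come from a separate population. Both wild-type populations were sampled at 38 h. The median absolute difference between them there was 0.25 log2 for the 10 genes, beside 0.14 over 12275 genes. 9 of the 10 lay within 0.63 log2, the 95th percentile, as 95% of all genes do by definition, so this count shows no special agreement. Past that percentile was nhr-74, at 1.43 RPKM in the second and 6.22 RPKM in the first population, while lin-4 had 39.2 RPKM at that hour. Rescaling moved the median of all genes by -0.13 log2 in this comparison and put ceh-16 at 0.96, under the size limit, and so did leaving out the 44 h pair (0.997) or the 46 h pair (0.98). Of the 9 epidermal marker genes tested, 0 were higher and 1, the blister collagen bli-1, was lower in lin-4 (-4.82 ± 1.32 log2), their summed level at 38 h being 2409 RPKM in lin-4, against 3182 RPKM in wild type. The part in these differences of the stage each population had reached was not tested.

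Within 38 to 48 h no member trend was called in either genotype. In lin-4 all 10 fitted changes were negative, and elt-1 (-0.59 ± 0.10 log2) and bro-1 (-0.85 ± 0.18) passed the adjusted p under the size limit (with limma 0.0875% of all genes fell and 1.60% rose, and 6 members had an unadjusted p under 0.05). In wild type 9 members were tested, ceh-16 being under the filter on low values, and 2 had an unadjusted p under 0.05 (2.81% of all genes fell, 10.5% rose). The wild-type 48 h library was the lowest of its population for elt-1, elt-3, egl-18, elt-6, rnt-1, bro-1, nhr-73 and nhr-74. ceh-16 was lowest at 46 h and lin-26 at 40 h. At 48 h elt-3, elt-6 and nhr-74 were at 7.26, 1.76 and 0.76 RPKM, against 22.0, 4.02 and 4.41 RPKM at 46 h.

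The genes most like each member were found by Pearson's r of log2(RPKM + 1) over all 71 libraries, which share populations and hours, so r is given as a description. egl-18 and elt-6 were each other's closest gene (r = 0.94), followed by chd-3 (0.92) for egl-18 and sdc-1 (0.93) for elt-6. elt-3 was closest to the claudin-like genes clc-5 (0.90) and clc-2 (0.87), elt-1 to tbx-2 (0.86) and mec-12 (0.85), and ceh-16 to sem-4 (0.89) and mab-9 (0.88). rnt-1 was closest to aha-1 (0.92) and twk-43 (0.92), bro-1 to the alpha-tubulin gene tba-8 (0.89) and nhr-73 (0.86), and lin-26 to dep-1 (0.84) and the overlapping lir-1 (0.83). nhr-73 and nhr-74 were closest to the near-copies nhr-245 and nhr-244 (above 0.99 each), then to nhr-113 (0.98) and nhr-73 (0.95). Among the members themselves, egl-18, elt-6, ceh-16, rnt-1 and elt-1 correlated pairwise at 0.65 to 0.94. nhr-73, nhr-74, bro-1 and lin-26 did so at 0.63 to 0.95, while rnt-1 correlated with nhr-73 at r = -0.09.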

How the data were processed

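The authors deposited 1 table of RPKM per gene for 71 libraries. The submitters' processing notes name BWA 0.5.9. The sources used here give no build, annotation or counting rule. Of 21777 entries, 2643 with RIT identifiers and 11 others carry no gene name (1.58 to 3.03% of summed RPKM) and were left out. 3 duplicate rows were counted once. Empty cells were taken as 0.

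limma 3.58.1 (R 4.3.3) was run on log2(RPKM + 1) of genes with mean RPKM of at least 1, with Benjamini-Hochberg adjustment over all of them, and checked on simulated data. Trends were fitted as linear time beside cosine and sine, cycles beside a spline with 3 degrees of freedom, temperature beside a spline of aligned time with 4. Periods were scanned from 4 h to 12 h in wild type and to 16 h in lin-4. lin-4 and wild type were paired by labelled hour (median correlation of deviations across genes 0.44 in 17 pairs of 6 to 38 h, -0.46 in 6 pairs of 38 to 48 h). Fed and arrested larvae were paired by population. Named were the 10 members, lin-14 and lin-28, up to 3 called genes per list and the 2 genes most like each member. bli-1, aff-1, lit-1 and the overlapping or near-copy genes were named after their values were seen. The members and lists were chosen with earlier results of these data known. Tables and plots were made in Python 3.11.15 (pandas 2.3.3, Matplotlib 3.10.9).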

Additional observations from a re-analysis of the deposited data

Results flagged for a closer look

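rnt-1 stood out because the lin-4 minus wild-type difference changed with time in the test of that change, by 1.19 log2 from 6 to 38 h (limma, adjusted p = 0.0011, 17 pairs). elt-3 stood out in the second wild-type population, where the 48 h library (7.26 RPKM) lay far below the other 5 on the log2(RPKM + 1) scale, its gap being 0.677 of the whole range by Dixon's test (critical value 0.625 for 6 libraries). On the RPKM scale 0 of the 10 genes held such a library in that population, and on the log2 scale 1 of 10 did. For independent values chance gives about 1 in 20. These 6 libraries are consecutive hours of 1 population, so that rate and the critical value need not apply. The 48 h library was also the lowest of this population for elt-1, egl-18, elt-6, rnt-1, bro-1, nhr-73 and nhr-74.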

How the results depend on the processing

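Over 3035 recomputed values of single members, 2852 kept their direction and side of the threshold, 102 lost and 44 gained a call, and 37 changed sign. The cause was not tested where none is named. With median-of-ratios rescaling, members falling in lin-4 numbered 1, members cycling at 25C 3, and members whose difference between genotypes grew with time 2. It turned the lin-4 trends of bro-1 (0.0722) and lin-26 (0.0259), the elt-1 genotype difference (-0.0547), and the fed difference of elt-3 (0.0239), egl-18 (0.146) and elt-6 (0.0943). With a pseudocount of 0.1, 3 members cycled at 25C, 5 were higher in lin-4 at 38 to 48 h and 1 fell within those hours in lin-4. The 25C trend of nhr-74 became 0.114 and the change with time of the ceh-16 temperature difference 0.0417. With no filter 3 cycled at 25C and 0 rose on feeding. With a filter at 5 RPKM, under which the genes concerned were not tested, 0 rose on feeding and 0 had a growing genotype difference. With no cycle terms 0 rose in lin-4 and 0 were lower at 25C. Members cycling at 25C numbered 3 with linear time, 0 at a period 1 h shorter, 1 at a period 1 h longer and 0 with all time points. With all time points 0 cycled at 20C, and with periods to 12 h 1 cycled in lin-4.

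With lin-4 time aligned to wild type, elt-1 differed by -0.126 and elt-6 by -0.0470, the change with time of lin-26 was -0.30, and 1 member, elt-1 (-1.303), was called lower with time. With an alignment factor 0.1 higher, the egl-18 temperature difference was 0.0152, and the changes with time turned positive for elt-6 (0.19), ceh-16 (0.24), bro-1 (0.30), nhr-73 (1.11) and nhr-74 (1.41). With 4 h and 3 h as fed times, at which both receptors were too low to be tested, 0 rose on feeding and lin-26 had -0.13. Without pairing by hour, the replicate block, the counts of members called for lin-4 against wild type stayed at 0, 1 and 3 for the mean, the change with time and 38 to 48 h, and 0 members rose on feeding without the population block.

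Leaving out single libraries, pairs or populations gave 0 to 1 members rising and 2 to 5 falling in lin-4, 6 to 8 falling at 25C and 5 to 8 at 20C, 3 to 5 cycling at 20C, 1 to 5 cycling at 25C, 1 to 2 with a growing genotype difference, 0 to 1 lower at 25C, 0 to 1 with a falling temperature difference and 0 to 2 rising on feeding. Trends that changed sign were those of nhr-74 at 25C (-1.38 to 0.0890) and, within 38 to 48 h, of bro-1 (-0.34 to 0.53), elt-6 (-1.31 to 0.25), rnt-1 (-0.35 to 0.17), nhr-73 (-0.35 to 0.80) and nhr-74 (-1.38 to 1.46) in wild type and elt-3 (-0.60 to 0.45) in lin-4. Genotype differences did so for nhr-74 (-0.29 to 0.0398) from 6 to 38 h and elt-3 (-0.14 to 0.43) from 38 to 48 h. Temperature differences did so for bro-1 (-0.13 to 0.0267), and their changes with time for nhr-74 (-0.92 to 0.25), ceh-16 (-0.43 to 0.0251) and elt-6 (-0.40 to 0.0105). Fed differences did so for lin-26 (-0.10 to 0.20), elt-6 (-0.27 to 0.0932), egl-18 (-0.13 to 0.10) and bro-1 (-0.0629 to 0.53). Depth limits levels under about 1 RPKM, such as ceh-16 after 38 h in wild type and both receptors at 0 h.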

Other observations

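Further epidermal genes were counted beside the shares of all genes that fell along the series (15.4% in lin-4, 16.7% at 25C and 16.4% at 20C) or rose (9.20%, 11.1% and 9.45%). Of 14 tested genes for epidermal fusion, junctions and anchors, 2 fell and 1 rose in lin-4, 3 fell at 25C and 5 fell at 20C. dlg-1, which encodes the Discs large scaffold of apical junctions, fell, with -1.28 ± 0.12 log2 in lin-4, -1.55 ± 0.15 at 25C and -1.55 ± 0.13 at 20C (SE, 17 libraries each, limma). Of 16 genes of the Wnt asymmetry pathway that polarises seam divisions, 1 fell in lin-4, 4 at 25C and 4 at 20C, among them egl-20, a Wnt ligand, with -1.35 ± 0.16, -1.79 ± 0.13 and -1.49 ± 0.18. Of 13 further seam and epidermal regulators, 3 rose and 0 fell in lin-4, 1 rose and 1 fell at 25C, and 1 rose and 4 fell at 20C. unc-62, a homeobox gene, fell at 25C (-1.17 ± 0.09) and at 20C (-1.21 ± 0.11), and egl-27 fell at 20C (-1.24 ± 0.14). lin-29, the zinc finger gene of the larval-to-adult switch, rose by 1.32 ± 0.29 in lin-4, 2.53 ± 0.43 at 25C and 2.40 ± 0.32 at 20C.

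In the change of the genotype difference with time, aff-1, a fusogen gene of late seam fusion, was called lower (-1.19 ± 0.30 log2, limma adjusted p = 0.022, 17 pairs) and lit-1, the kinase of the Wnt asymmetry pathway, higher (1.06 ± 0.30, adjusted p = 0.034).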
